A study of Rattus norvegicus with 7 samples.

Results

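The genes described here are the 10 Fos, Jun and small Maf transcription factors Fos, Fosb, Fosl1, Fosl2, Jun, Junb, Jund, Maff, Mafg and Mafk, taken by gene symbol from the 17147 genes listed for each library. All 10 were listed and all 10 passed the filter on low values. RNA-seq was performed on primary mesenchymal stem cells from rat bone marrow (rMSCs), untreated apart from the surface, that had been seeded for 4 h on tissue culture plate (TCP, 1 library), on films of polycaprolactone (PCL, 3 libraries) or on films of ISB-P (3 libraries), a polycaprolactone-based polyurethane that contains propoxylated isosorbide. All cells shared the same growth medium, with serum and antibiotics, and both films had been sterilised with ethylene oxide gas. The study asked which transcripts distinguish cells on ISB-P from cells on PCL. Its methods describe the isolation of rMSCs from a single male Sprague-Dawley rat, and nothing in the sources states that the libraries of a film came from separate animals, so the p-values measure the spread between these libraries, which may be technical.

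AP-1 is a dimeric transcription factor in which a Jun protein pairs with another Jun protein or with a Fos protein through a leucine zipper. Several of its genes, Fos, Fosb, Jun and Junb among them, are immediate early genes, switched on by growth factors, serum, mechanical stretch and cell attachment without a need for new protein synthesis. The small Maf proteins carry the same kind of zipper but no transactivation domain, and they bind DNA as partners of the Cap'n'collar factors, such as Nrf2 (encoded by Nfe2l2), and of the repressor Bach1 at antioxidant response elements.

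Values were read as FPKM, that is, fragment counts scaled to transcript length and library size, a unit not named with the deposited values. Comparisons of level between genes, such as sums, shares and orders, rest on that reading. All folds, SE and 95% confidence intervals (CI) from limma are on the log2(FPKM + 1) scale, which understates the change of low genes. Library sums of FPKM ranged from 539393 on TCP to 660124 on an ISB-P film, between 4537 and 5105 genes were listed at 0, and the read depth is unknown. Of 8 mesenchymal markers 7 were at 1 FPKM or more in every library, and Col1a2, which these cells need for collagen I, was listed at 0 in all 7, so that a 0 in these tables can be a failed estimate. The 5 endothelial markers were all under 1 FPKM in every library. In bulk RNA, fewer cells of a type and less RNA per cell cannot be told apart. Film libraries with the same replicate number deviated together from their film means, and the fit with the replicate number as a block is therefore given wherever it changed a call.

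**Figure D1:**
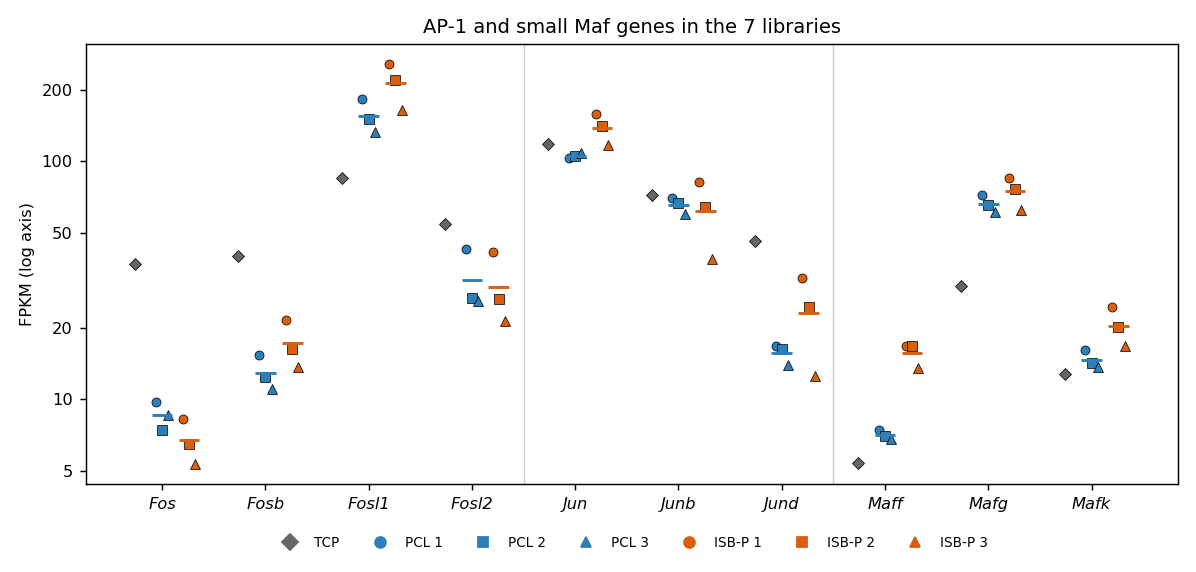
FPKM (log axis) of each of the 10 genes in the 7 libraries, 1 point a library, with colour for the surface, shape for the replicate number and a bar at the mean of each film. Maff lies between 13.5 and 16.7 FPKM on ISB-P and between 6.82 and 7.41 FPKM on PCL, and Fos lies at 37.1 FPKM on TCP against 9.78 FPKM or less on the films.

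Maff was the only one of the 10 genes called higher on ISB-P than on PCL without the replicate block, and 7 of the 10 had a log2 fold change above 0. It encodes a small Maf protein whose transcript responds quickly to stress and cytokines. It was at 16.7, 16.7 and 13.5 FPKM in the 3 ISB-P libraries and at 7.41, 6.98 and 6.82 FPKM in the 3 PCL libraries, with 5.41 FPKM on TCP. Each ISB-P library lay above each PCL library, and the TCP library lay below all 6. The means were 15.6 ± 1.87 FPKM on ISB-P and 7.07 ± 0.303 FPKM on PCL (SD, n = 3), a ratio of 2.21, and ISB-P exceeded PCL by 2.25, 2.40 and 1.98 times within replicate numbers 1, 2 and 3. The log2 fold change was 1.04 (SE 0.13, CI 0.73 to 1.35, limma adjusted p = 0.0177) and its adjusted p with the replicate block was 1.04e-04. The call was lost when any film library but ISB-P replicate 3 was left out, which also leaves a smaller fit. The limma adjusted p was 0.0821 without PCL replicate 1, 0.170 without PCL replicate 2, 0.113 without PCL replicate 3, 0.0567 without ISB-P replicate 1 and 0.162 without ISB-P replicate 2. The log2 fold change stayed between 0.99 and 1.14 over all 6 omissions. Of all 9467 genes tested, 1.10% were called higher on ISB-P and 0.623% lower, against 1 and 0 of the 10 genes here. The split of the calls over all genes was 104 higher and 59 lower as deposited and 70 and 70 with a common total.

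Mafg and Mafk, the other two small Maf genes, encode widely expressed partners of Nrf2. Mafk was at 24.4, 20.04 and 16.7 FPKM on ISB-P, at 16.1, 14.1 and 13.6 FPKM on PCL and at 12.8 FPKM on TCP. Its film libraries did not overlap as deposited, but they did once the libraries were scaled to a common upper quartile or total. The log2 fold change of Mafk between the films was 0.44 (SE 0.17, limma adjusted p = 0.346), and the adjusted p became 0.00719 with the replicate block. Mafg was at 85.5, 76.7 and 62.3 FPKM on ISB-P, at 72.0, 65.9 and 61.4 FPKM on PCL and at 29.8 FPKM on TCP. The films overlapped for Mafg, with a log2 fold change of 0.16 (SE 0.16, CI −0.21 to 0.53, limma adjusted p = 0.859), while every film library lay above the TCP library.

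Promoter sequence is shown for the 4 of these genes in which a searched motif was found, with the motif in capitals, since Maff and Mafk are 2 of the 3 genes whose film libraries did not overlap. Of the 10 genes, 8 matched the RefSeq promoter table (assembly GRCr8, a later build than the rn5 named for the expression values), and Fos and Jun had no entry. Each run is the 250 bases before the annotated start, read 5′ to 3′ on the strand of the gene. Maff lies at chr7:112792537-112792786 on the plus strand, Jund at chr16:18769772-18770021 on the minus strand, Fosl1 at chr1:212183635-212183884 on the plus strand and Mafk at chr12:19959193-19959442 on the minus strand.
Maff: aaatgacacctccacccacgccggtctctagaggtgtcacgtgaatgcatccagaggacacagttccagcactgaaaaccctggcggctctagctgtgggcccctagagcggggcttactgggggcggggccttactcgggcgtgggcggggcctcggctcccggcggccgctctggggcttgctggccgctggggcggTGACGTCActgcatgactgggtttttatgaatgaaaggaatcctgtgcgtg
Jund: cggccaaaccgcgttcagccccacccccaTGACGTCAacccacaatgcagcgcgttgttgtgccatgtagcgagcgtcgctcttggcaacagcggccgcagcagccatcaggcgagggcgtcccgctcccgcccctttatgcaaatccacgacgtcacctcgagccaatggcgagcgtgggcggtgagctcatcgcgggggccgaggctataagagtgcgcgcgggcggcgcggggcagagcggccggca
Fosl1: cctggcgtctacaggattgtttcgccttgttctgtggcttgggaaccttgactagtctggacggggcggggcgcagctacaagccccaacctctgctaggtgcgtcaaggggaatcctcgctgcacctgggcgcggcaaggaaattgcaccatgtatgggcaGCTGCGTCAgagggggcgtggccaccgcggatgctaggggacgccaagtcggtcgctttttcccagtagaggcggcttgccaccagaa
Mafk: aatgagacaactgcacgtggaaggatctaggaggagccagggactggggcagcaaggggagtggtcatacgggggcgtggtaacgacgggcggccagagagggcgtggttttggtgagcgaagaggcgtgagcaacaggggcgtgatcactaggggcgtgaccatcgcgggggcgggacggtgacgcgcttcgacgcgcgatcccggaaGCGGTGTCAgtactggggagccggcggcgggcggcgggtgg
The capitals in Maff and Jund mark the cyclic AMP response element TGACGTCA, which ATF and CREB family proteins and Jun-ATF dimers bind, at 51 to 44 bases before the start of Maff and at 221 to 214 bases before that of Jund. The capitals in Fosl1 and Mafk mark a match to TGACNNNGC on the opposite strand, the core bound by small Maf and Cap'n'collar dimers, at 88 to 80 and at 41 to 33 bases before the start. Searched on both strands over the whole window, which adds the 50 bases after the start, 1.83% of 33469 promoters held the first motif and 12.1% the second. The AP-1 site TGAGTCA was held by 4.63% of promoters, the heat shock element core GAANNTTC by 8.59% and the CArG box, the serum response factor site, by 1.64%, and none of the 8 promoters held any of these 3. TGACNNNGC can overlap the reverse complement of TGAGTCA, but no stretch here matched both. A match is a description of these letters and not evidence of binding.

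The 4 Fos genes were not called between the films without the block, and they lay in different directions. Fosl1, which encodes Fra-1, a Fos protein without a strong transactivation domain that is abundant in adherent and invasive cells, was at 257, 221 and 164 FPKM on ISB-P, at 183, 151 and 133 FPKM on PCL and at 85.5 FPKM on TCP. The lowest ISB-P library overlapped the PCL range. Its log2 fold change between the films was 0.44 (SE 0.20, CI −0.04 to 0.93, limma adjusted p = 0.483), with an adjusted p of 0.00335 with the replicate block. Fosb, an immediate early gene that also yields the truncated protein ΔFosB, was at 21.6, 16.3 and 13.7 FPKM on ISB-P, at 15.3, 12.4 and 11.03 FPKM on PCL and at 40.1 FPKM on TCP. Here, too, the films overlapped and each ISB-P library was above the PCL library of the same number, by 1.42, 1.31 and 1.24 times. The log2 fold change of Fosb was 0.38 (SE 0.20, limma adjusted p = 0.573, and 0.0107 with the replicate block).

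Fos, the classic immediate early gene, was at 8.29, 6.49 and 5.33 FPKM on ISB-P, at 9.78, 7.43 and 8.57 FPKM on PCL and at 37.1 FPKM on TCP. It was the only one of the 10 genes called lower on ISB-P than on PCL in any fit of the films. Each ISB-P library was below the PCL library of the same number, with ratios of 0.848, 0.874 and 0.622. The log2 fold change was −0.33 (SE 0.18, CI −0.75 to 0.10, limma adjusted p = 0.586), with 0.0496 with the replicate block and 0.0583 with the block and quantile normalization. Fosl2, which encodes Fra-2, was at 41.5, 26.5 and 21.2 FPKM on ISB-P, at 42.8, 26.8 and 25.8 FPKM on PCL and at 54.5 FPKM on TCP. Its film values ran almost side by side within replicate numbers, and the log2 fold change of −0.11 had a CI from −0.81 to 0.59 (limma adjusted p = 0.954).

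The 3 Jun genes were not called between the films without the block either. Jun, the main partner of the Fos proteins, was at 158, 141 and 117 FPKM on ISB-P, at 103, 105 and 109 FPKM on PCL and at 118 FPKM on TCP. The ISB-P libraries lay above all PCL libraries as deposited, but overlapped them after scaling to a common upper quartile or total. The log2 fold change of Jun was 0.38 (SE 0.14, CI 0.03 to 0.72, limma adjusted p = 0.35), the adjusted p with the replicate block was 0.0223, and it passed the threshold with neither the common total (0.0802) nor quantile normalization (0.104) added to the block.

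Junb, a weaker activator that can oppose Jun at some promoters, was at 81.9, 64.6 and 38.9 FPKM on ISB-P, at 70.3, 66.7 and 60.2 FPKM on PCL and at 72.0 FPKM on TCP. Its ISB-P libraries spanned the PCL range on both sides, with a log2 fold change of −0.15 (CI −0.78 to 0.48, limma adjusted p = 0.934). Jund, which is present in resting cells and can slow proliferation, was at 32.4, 24.5 and 12.5 FPKM on ISB-P, at 16.8, 16.2 and 14.0 FPKM on PCL and at 46.1 FPKM on TCP. The first and second ISB-P libraries were above every PCL library and the last was below every one, giving a log2 fold change of 0.44 (SE 0.32, limma adjusted p = 0.750, and 0.0859 with the replicate block).

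**Figure D2:**
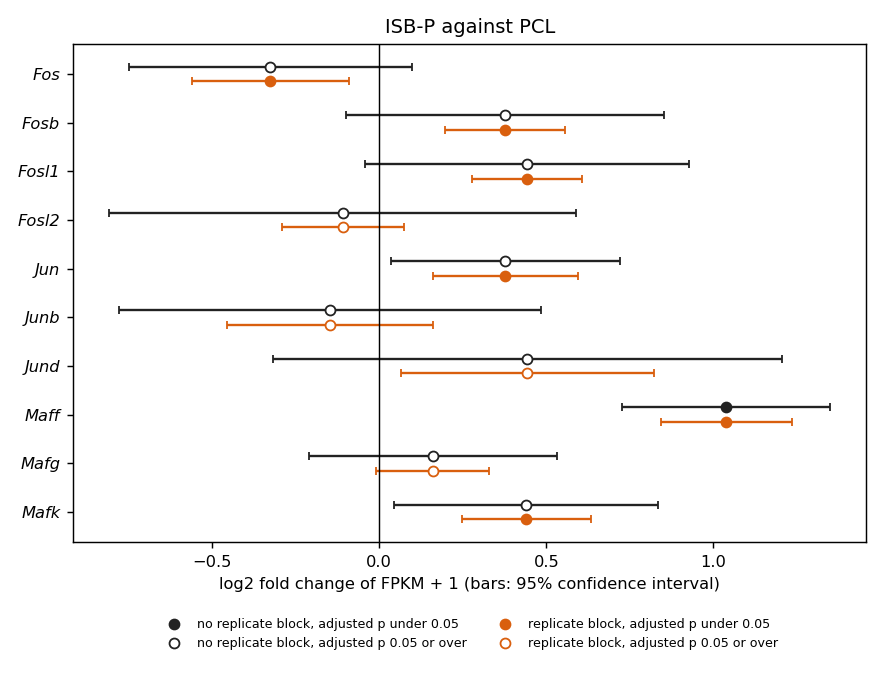
Log2 fold change of ISB-P against PCL (FPKM + 1) for each of the 10 genes with its 95% CI, fitted by limma with the replicate block and without it. Without the block 1 gene passed an adjusted p of 0.05 (Maff), and with it 6 passed, of which Fos was lower on ISB-P.

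With the block, 5 of the 10 genes were called higher on ISB-P (Fosb, Fosl1, Jun, Maff and Mafk) and 1 was called lower (Fos), where 13.0% and 11.4% of all genes were called higher and lower (1228 and 1079, and 711 and 2116 with a common total). With the common total added to the block, 5 of the 10 genes were called, 4 of them higher. The median log2 fold change between the films was 0.38 over the 10 genes and 0.02 over all 9467 genes. Jun, Maff and Mafk, 3 of the 10, had all ISB-P libraries above all PCL libraries, as did 8.17% of all genes, and 0 of the 10 had them all below, as did 9.54%. With 3 libraries against 3, the smallest p of an exact two-sided permutation test is 0.1, which was the value for each of these 3 genes. A cruder rule, which asks for more than 2-fold, for an unadjusted p below 0.1 and for 16 FPKM or more in the mean of 1 of the films, took 0.687% of all genes and 0 of the 10, with Maff just below its minimum at 15.6 FPKM.

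Against the single TCP library, Fos and Fosb fell on both films and Mafg rose on both. Fos was 4.32 times as high on TCP as the PCL mean and 5.54 times as high as the ISB-P mean, with log2 fold changes of −2.0 on PCL (SE 0.25, limma adjusted p = 0.00571) and −2.32 on ISB-P (SE 0.25, limma adjusted p = 0.00272). Fosb was 3.11 and 2.33 times as high on TCP, with log2 fold changes of −1.57 on PCL (SE 0.28, limma adjusted p = 0.0203) and −1.20 on ISB-P (SE 0.28, limma adjusted p = 0.0386). Mafg on the films was 2.23 (PCL) and 2.51 (ISB-P) times the TCP value, with log2 fold changes of 1.13 (SE 0.22, limma adjusted p = 0.0268) and 1.29 (SE 0.22, limma adjusted p = 0.0135). These tests take the spread of the lone TCP library to be that of the film libraries, and the surface and that library cannot be told apart.

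Fosl1 and Maff were called against TCP on ISB-P and not on PCL. The log2 fold change of Fosl1 was 1.29 on ISB-P (SE 0.29, limma adjusted p = 0.0320) and 0.85 on PCL (SE 0.29, limma adjusted p = 0.15). That of Maff was 1.37 on ISB-P (SE 0.19, limma adjusted p = 0.00597) and 0.33 on PCL (SE 0.19, limma adjusted p = 0.383). Both contrasts share the TCP library, and the difference between them is the comparison of the films given above, which Maff passed and Fosl1 passed with the replicate block alone. Jund was 2.95 times as high on TCP as the PCL mean, but its log2 fold changes of −1.50 on PCL (SE 0.45, limma adjusted p = 0.108) and −1.06 on ISB-P (limma adjusted p = 0.177) missed the threshold. Without ISB-P replicate 3 the limma adjusted p of Jund on PCL was 0.00753, with the same log2 fold change. Fosl2, Jun, Junb and Mafk were called on neither film, with log2 fold changes between −0.91 and 0.62.

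Several of these calls were lost when a library was left out or the scaling was changed. Leaving out a library also leaves a smaller fit. Fosb and Mafg on PCL lost their calls without ISB-P replicate 2 with the log2 fold change unchanged. Fos on both films and Maff on ISB-P passed in every alternative in which they were tested. Mafg on PCL had an adjusted p of 0.0628 to 0.0799 under the 3 other scalings, and 0.0674, 0.0992, 0.0643 and 0.0781 without PCL replicate 1, PCL replicate 2, PCL replicate 3 and ISB-P replicate 2 (limma). Mafg on ISB-P had 0.0523 with quantile normalization and 0.0601 without ISB-P replicate 2 (limma). Fosb on PCL had 0.0814, 0.0609 and 0.0614, and Fosb on ISB-P 0.0907, 0.0610 and 0.119, without PCL replicate 2, PCL replicate 3 and ISB-P replicate 2 (limma). Fosb on ISB-P had 0.0507 with upper quartile scaling and 0.0536 among genes of at least 16 FPKM (limma). Fosl1 on ISB-P had 0.0781, 0.0503 and 0.105 without the same 3 libraries and 0.0793 to 0.140 under the other scalings (limma).

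On PCL 1 of the 10 genes was called higher than on TCP and 2 lower, where 4.02% and 4.01% of 9537 genes were. On ISB-P 3 were called higher and 2 lower, where 6.34% and 6.29% were (605 and 600 genes, and 511 and 814 with a common total). With the common total 4 of the 10 genes were called on ISB-P, 2 of them higher. The TCP library lay above all 6 film libraries for 4 of the 10 genes (Fos, Fosb, Fosl2 and Jund), as for 25.7% of all genes, and below all 6 for 4 (Fosl1, Maff, Mafg and Mafk), as for 29.4%. Mafk fell within the film range after scaling to a common upper quartile or total. Markers of other cells differed between the single TCP library and the films: the 9 haematopoietic markers summed to 129.5 FPKM on TCP against 39.2 to 46.6 FPKM on PCL and 39.4 to 45.3 FPKM on ISB-P, with Lyz2 at 72.9 FPKM on TCP, 4 of the 9 at 1 FPKM or more in every library, and Cd34 and Cd3e listed at 0 in all. The 5 adipocyte markers summed to 75.9 FPKM on TCP against 19.99 to 32.0 FPKM on PCL and 23.7 to 41.1 FPKM on ISB-P, of which Fabp4 made up 71.1 FPKM on TCP, and the 8 mesenchymal markers to 12645 FPKM on TCP against 6548 to 7953 FPKM on the films. Col1a1 carried that last difference, at 10406 FPKM on TCP against 3868 to 6058 FPKM on the films, while Itgb1 was at 481 FPKM on TCP and at 455 to 1164 FPKM on the films. Their part in the results against TCP was not tested. Between the films these 3 sums overlapped, but Pdgfrb (154 to 177 FPKM on PCL, 86.6 to 110 FPKM on ISB-P) and Cd14 (14.4 to 16.6 FPKM on PCL, 10.9 to 11.4 FPKM on ISB-P) did not. The endothelial sum did not overlap either, at 0.354 to 0.408 FPKM on PCL and 0.618 to 0.752 FPKM on ISB-P, with Kdr at 0.365 FPKM or less. The part of these markers in the film comparison was not tested.

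**Figure D3:**
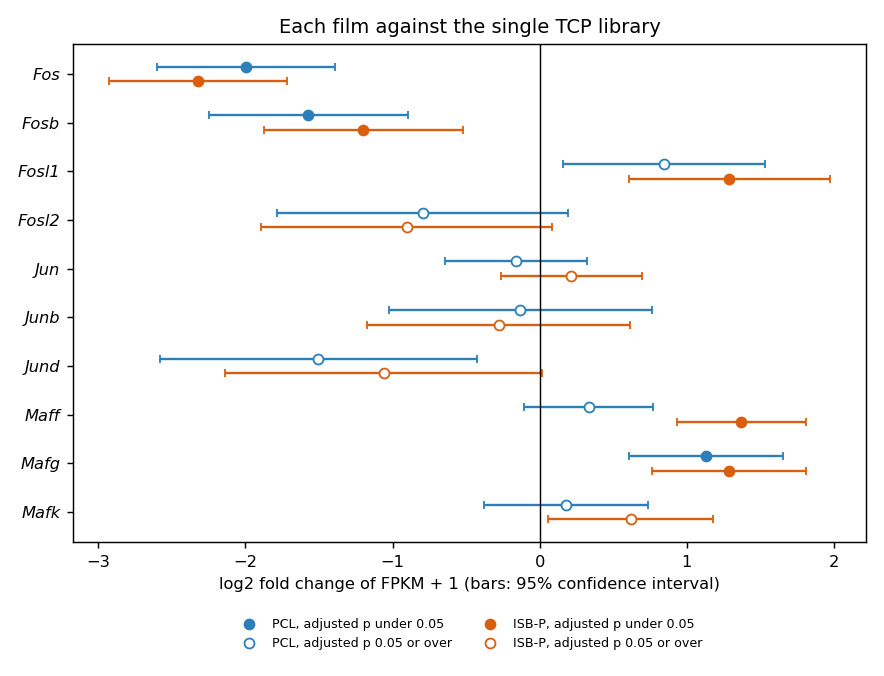
Log2 fold change (FPKM + 1) of PCL and of ISB-P against the single TCP library for each of the 10 genes, with 95% CI from limma and filled points for an adjusted p under 0.05. Fos and Fosb lie to the left of 0 on both films, and Mafg lies to the right of 0 on both.

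The make-up of each family differed between the surfaces, and shares within a library do not depend on how libraries are scaled to each other. The shares of a family add up to 100%, so a higher share of any gene lowers the shares of the others whatever their levels. For Fos, Fosl1, Fosl2, Junb and Mafg the levels overlapped between the films although the shares did not. The 4 Fos genes summed to 217 FPKM on TCP, 209 ± 37.2 FPKM on PCL and 268 ± 62.1 FPKM on ISB-P (SD, n = 3). Fosl1 made up 39.4% of that sum on TCP, 72.9 to 76.5% on PCL and 78.3 to 81.8% on ISB-P, so that each ISB-P library lay above each PCL library. Fos made up 17.1% on TCP, 3.75 to 4.79% on PCL and 2.41 to 2.61% on ISB-P, again without overlap. Fosl2 made up 25.1% on TCP, 13.5 to 17.1% on PCL and 9.82 to 12.6% on ISB-P, while Fosb made up 18.5% on TCP and overlapped between the films, at 6.18 ± 0.0851% on PCL and 6.44 ± 0.361% on ISB-P.

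The 3 small Maf genes summed to 48.0 FPKM on TCP, 88.2 ± 6.93 FPKM on PCL and 111 ± 17.2 FPKM on ISB-P. Mafg was the main gene on every surface, with 62.1% on TCP, 67.5 ± 0.120% on ISB-P and 75.4 ± 0.354% on PCL. Maff made up 11.3% on TCP, 7.75 to 8.33% on PCL and 13.2 to 14.8% on ISB-P. The share of Maff thus lay on TCP between the films, although its level there was below both. The 3 Jun genes summed to 236 FPKM on TCP, 187 ± 3.77 FPKM on PCL and 224 ± 52.3 FPKM on ISB-P. Jun made up 50.1% on TCP, with 62.9 ± 5.91% on ISB-P and 56.5 ± 2.68% on PCL, and Jund made up 19.5%, 9.99 ± 2.31% and 8.36 ± 0.641% in that order, with overlap between the films for both. Junb made up 30.4% on TCP, 32.9 to 37.0% on PCL and 23.1 to 30.0% on ISB-P, where each ISB-P library lay below each PCL library. No p is given for these shares, since the genes of a family share their libraries and an exact test of 3 libraries against 3 cannot go below 0.1.

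**Figure D4:**
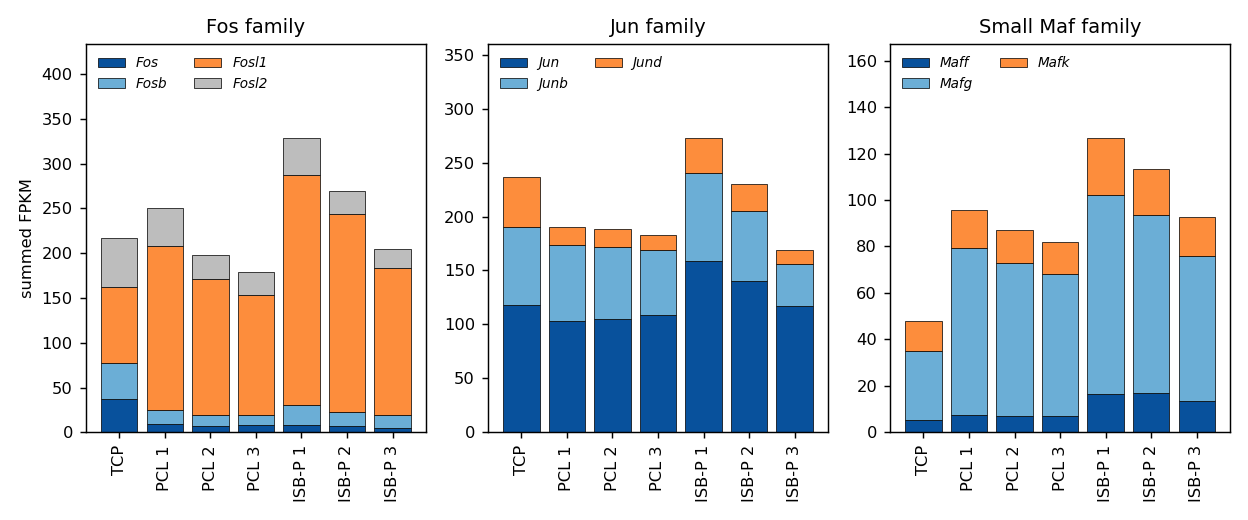
Summed FPKM of the Fos, Jun and small Maf families in each library, 1 bar a library, with a coloured segment for each gene. Fosl1 takes 39.4% of the Fos family on TCP and at least 72.9% in every film library, and Maff takes at least 13.2% of the small Maf family in every ISB-P library and at most 8.33% in every PCL library.

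Ordered by level per length, the genes stood as Jun, Fosl1, Junb, Fosl2, Jund, Fosb, Fos, Mafg, Mafk and Maff on TCP, where 1 library gives no spread. On PCL the order by mean FPKM was Fosl1, Jun, Mafg, Junb, Fosl2, Jund, Mafk, Fosb, Fos and Maff. The libraries of Mafg and Junb overlapped there, as did those of Jund, Mafk and Fosb in turn, and the other neighbours did not. On ISB-P the order was Fosl1, Jun, Mafg, Junb, Fosl2, Jund, Mafk, Fosb, Maff and Fos. There every neighbour from Mafg to Maff overlapped the next, while Fosl1 stood above Jun, Jun above Mafg, and Maff above Fos without overlap. Mafg moved from eighth on TCP to the third place on both films, and Fos was below Maff on ISB-P alone.

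The replicate libraries of each film differed from each other in a way that the 10 genes shared. PCL replicate 1 held the highest PCL value for 9 of the 10 genes, against 33.8% of all genes, and ISB-P replicate 1 the highest ISB-P value for 9, against 38.7%. ISB-P replicate 3 held the lowest ISB-P value for all 10, against 37.6% of all genes, and PCL replicate 3 the lowest PCL value for 8, against 27.9%. In relative terms Jun on PCL spread least, from 103 to 109 FPKM, and Jund on ISB-P most, from 12.5 to 32.4 FPKM. What the replicate numbers stand for beyond the labels is not given in the sources used here.

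The counts for related genes stand against the shares of all genes called: 1.10% higher and 0.623% lower between the films, 13.0% and 11.4% with the block, 4.02% and 4.01% for PCL against TCP, and 6.34% and 6.29% for ISB-P against TCP. Among 18 other bZIP genes that pair or compete with these factors, 13 were listed in the files and 10 were tested. Atf3, a stress-induced ATF protein that dimerises with Jun, was the 1 gene called between the films without the block. It was at 17.3, 15.0 and 18.4 FPKM on ISB-P, at 6.95, 7.18 and 8.06 FPKM on PCL and at 14.6 FPKM on TCP, with a log2 fold change of 1.09 between the films (SE 0.13, limma adjusted p = 0.0159). With the block 4 were called higher and 2 lower, the latter being the large Maf gene Maf (−0.72, limma adjusted p = 0.00101) and Jdp2, a repressive partner of Jun (−0.63, limma adjusted p = 0.00132), whose adjusted p without the block were 0.35 and 0.435. Nfe2l2, the partner of small Maf proteins at antioxidant response elements, had a log2 fold change of −0.14 between the films (limma adjusted p = 0.915). Bach1, the repressor that takes the same place, was at 26.6 FPKM on TCP, 64.4 to 67.4 FPKM on PCL and 76.8 to 78.1 FPKM on ISB-P. Its log2 fold change between the films was 0.23 (SE 0.11, limma adjusted p = 0.488, and 0.0335 with the replicate block), and it rose against TCP on PCL (1.27, limma adjusted p = 0.00467) and on ISB-P (1.51, limma adjusted p = 0.00225). The median log2 fold change between the films was 0.14 over the 10 tested genes of this bZIP list.

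Of 22 kinases and serum response genes upstream of AP-1, 20 were listed and 17 tested, and 1 was called between the films. Mapk14, which encodes the stress kinase p38α, fell from 30.8, 30.5 and 31.9 FPKM on PCL to 16.8, 15.9 and 13.7 FPKM on ISB-P, with 37.7 FPKM on TCP (log2 fold change −0.97, SE 0.13, limma adjusted p = 0.0201). Map3k5, which encodes the kinase ASK1 (−0.48, limma adjusted p = 0.207, and 0.0171 with the replicate block), and Srf, the serum response factor that drives Fos (−0.43, limma adjusted p = 0.419, and 0.00852 with the block), passed with the block alone. With the block 0 of the 17 were called higher and 3 lower. The median of the list was −0.07, and transcript levels say nothing of kinase activity.

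Of 23 genes known as AP-1 targets in other settings, all were listed and 22 tested. Between the films 2 were called higher and 0 lower. With the block 4 of the 22 were called higher and 3 lower, which is near the 13.0% and 11.4% of all genes and no result about the list. Areg, an EGF receptor ligand, rose from 2.86, 2.76 and 4.12 FPKM on PCL to 17.1, 18.2 and 25.7 FPKM on ISB-P, with 0.580 FPKM on TCP (log2 fold change 2.32, SE 0.20, limma adjusted p = 0.00395). Hbegf, another ligand of that receptor, rose from 19.3, 21.8 and 24.0 FPKM to 48.8, 50.4 and 58.8 FPKM, with 31.7 FPKM on TCP (1.24, SE 0.14, limma adjusted p = 0.0124). Il6 was at 1.176, 3.04 and 2.54 FPKM on PCL and at 5.03, 9.90 and 14.95 FPKM on ISB-P (1.69, SE 0.39, limma adjusted p = 0.109, and 1.15e-04 with the block). The median of the list was 0.02, as was that over all genes. Against TCP 3 were higher and 1 lower on PCL, and 6 were higher and 1 lower on ISB-P.

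Of 18 genes known to carry antioxidant response elements, the sites of small Maf dimers, 17 were listed and tested. Between the films Srxn1, which encodes sulfiredoxin, was the 1 gene called without the block: it rose from 374, 379 and 376 FPKM on PCL to 617, 598 and 587 FPKM on ISB-P, with 87.3 FPKM on TCP (log2 fold change 0.67, SE 0.10, limma adjusted p = 0.0287). With the block 12 were called higher and 1, Gstp1, lower. Among those passing with the block alone were Hmox1, the haem-degrading enzyme (0.92, limma adjusted p = 0.0651 without it), Slc7a11, the cystine transporter (1.79, limma adjusted p = 0.136 without it), and Prdx1, a peroxiredoxin (0.90, limma adjusted p = 0.303 without it). Against the single TCP library 11 of the 17 rose on PCL and 15 on ISB-P, with 0 lower on either. The list was chosen with earlier results of these data known. The median log2 fold change was 0.40 between the films, 1.99 for PCL against TCP and 2.12 for ISB-P against TCP, where the medians of all genes were 0.02, 0.06 and 0.05. Hmox1, for example, was at 186 FPKM on TCP, 1313 to 1686 FPKM on PCL and 2289 to 3451 FPKM on ISB-P.

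Of 9 other immediate early genes, 8 were tested between the films and 9 against TCP. Egr2, a zinc finger factor, rose between the films from 0.977, 1.03 and 1.06 FPKM on PCL to 2.34, 2.63 and 1.87 FPKM on ISB-P (log2 fold change 0.69, SE 0.12, limma adjusted p = 0.0445), and was at 6.19 FPKM on TCP. Ier5 (0.60, limma adjusted p = 0.536) and Egr3 (0.50, limma adjusted p = 0.341) passed with the block alone, at 0.00641 and 0.0124, and the list's median was 0.17. Against TCP 1 gene was called higher (Ier3) and 3 lower (Egr2, Nr4a1 and Nr4a3) on each film. Nr4a3 was at 3.12 FPKM on TCP, 0.810 to 0.842 FPKM on PCL and 0.861 to 1.19 FPKM on ISB-P. It passed the filter only with the TCP library counted, so its 2 calls were conditional on the TCP value that they test. The 3 called lower lay above all film libraries on TCP, which a call lower on both films nearly implies. Egr1, Egr3 and Nr4a2, called on neither film against TCP, lay above all film libraries there too, as did 25.7% of all genes.

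**Figure D5:**
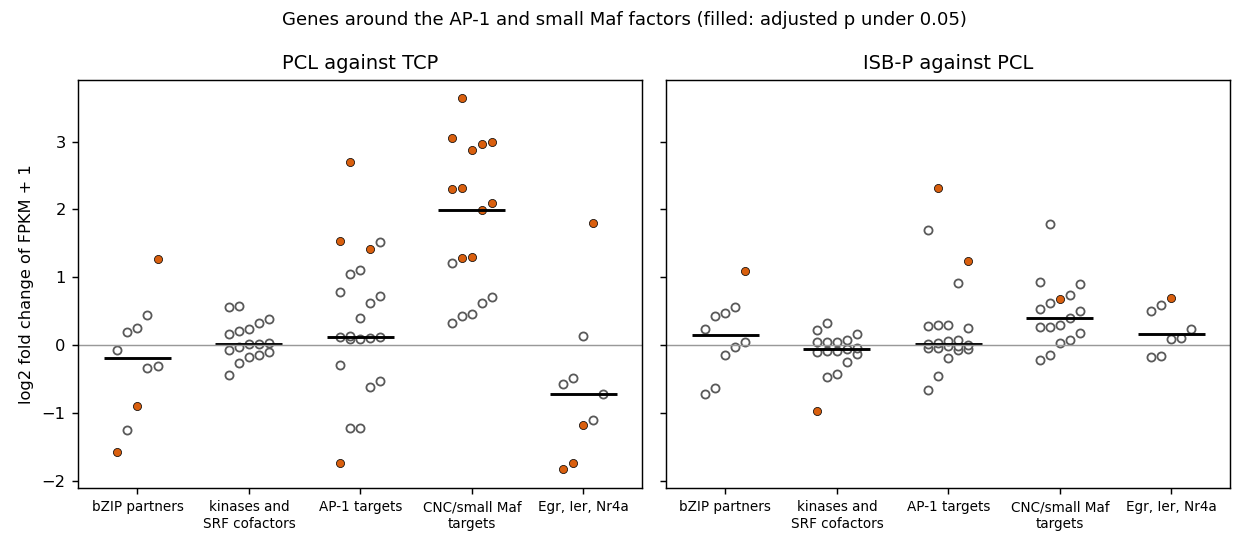
Log2 fold change (FPKM + 1) of PCL against TCP (left) and of ISB-P against PCL (right) for each tested gene of the 5 related lists, 1 point a gene, filled for a limma adjusted p under 0.05, with a bar at the median of each list. The median of the antioxidant response genes (CNC/small Maf targets) lies at 1.99 on the left and 0.40 on the right, and that of the AP-1 targets at 0.12 and 0.02.

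The genes whose profile over the 7 libraries was most like that of each factor were taken as the 2 with the smallest Euclidean distance between mean-centred log2(FPKM + 1) profiles, among 9527 other genes. For Maff these were Tubb3 (distance 0.334), which encodes a neuronal β-tubulin, and Prkar1b (0.388), a regulatory subunit of protein kinase A. For Fos they were Arhgef19 (0.361) and Rasl12 (0.373), and for Fosl1 Dot1l (0.241), a histone H3 methyltransferase, and Espnl (0.273). Ngef was among the 2 nearest genes of both Fosb (0.232) and Jund (0.569). Jun lay nearest to Rassf5 (0.166) and Dnajb2 (0.211), Junb to Irgc (0.149) and Znhit2 (0.189), and Fosl2 to Hps1 (0.218) and Leprel2 (0.219). Mafg lay nearest to Tuba4a (0.133) and Cited1 (0.170), and Mafk to Pelo (0.139) and Tmem11 (0.167). Within the 10 factors the closest were Jun and Mafk (0.423), Fosl1 and Mafg (0.426), and Fosb and Jund (0.599). The 7 libraries include 1 on TCP, so that for genes far from the films there the distance rests largely on that library.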

How the data were processed

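rMSCs on TCP (1 library), PCL (3) and ISB-P (3) were measured by stranded mRNA-seq. The authors deposited 1 table of normalised values per library, read here as FPKM because the submitters' processing notes name TopHat2 2.0.13 and Cuffdiff 2.2.1 (with cutadapt 1.18, bcl2fastq 2.20.0.422 and build rn5). The tables themselves do not name the unit. They hold no counts, so depth is unknown and no counting interval is given. No column of another sample was used.

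Groups and replicate numbers came from the labels. Genes that reached 1 FPKM in 3 or more libraries entered two-sided limma tests (limma 3.58.1, R 4.3.3) on log2(FPKM + 1), and p-values were adjusted over all of them by Benjamini-Hochberg, with a threshold of 0.05. ISB-P and PCL were compared on the 6 film libraries (9467 genes). Each film was compared with TCP in 1 fit of all 7 libraries (9537 genes). Permutation tests were exact and two-sided. Deviations from the film means correlated at 0.887, 0.431 and 0.867 across genes between libraries numbered 1, 2 and 3, so the numbers of the labels were taken to pair the film libraries. This pairing was read from the same values that the block fits tested, and the sources do not state it. The script was tested on simulated data. Alternatives were other scalings, filters and pseudocounts, the replicate block and leaving out each library.

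The 10 genes and all lists were chosen with earlier results of these data known. From each list were named the genes passing between the films, at most 6, and the 3 with the largest absolute log2 fold change. Genes shown beyond these (Nfe2l2, Bach1, Gstp1, Ier3, Egr1, Nr4a1, Nr4a2, Nr4a3) were picked after their values were seen. For each of the 10 genes the 2 nearest profiles were named, of which 1 gene is not reported here. Protein sequences and the promoters of Fos and Jun were not used here.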

Additional observations from a re-analysis of the deposited data

How the results depend on the processing

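With a main count of 1 of the 10 genes called between ISB-P and PCL, the replicate block called 6, and the block called 6 with upper quartile scaling, 5 with the common total and 4 with quantile normalization, these 3 being chosen after seeing the data. The count was 0 with a filter of 16 FPKM, under which Maff was not tested, 0 by the rule of fold and minimum level, and 0 to 1 over the omissions of 1 library. The other alternatives left it at 1, with the log2 fold change of Maff between 0.93 and 1.13. Against TCP the count on PCL (3) ranged from 1 to 4 over the omissions. The count on ISB-P (5) was 3 with upper quartile scaling, 3 with quantile normalization, 2 with the 16 FPKM filter and 2 to 5 over the omissions. The number of genes whose film libraries did not overlap went from 3 to 1 with upper quartile scaling.

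The sign turned for Fosl2 (−0.37 to 0.12 over the omissions) and Junb (−0.38 to 0.15) between the films, for Junb on ISB-P against TCP (−0.51 to 0.016), and for Jun on ISB-P against TCP with quantile normalization (−0.012). None of these was called, and the cause was not tested. Of 403 alternative values of single genes, 352 kept direction and side of the threshold, 18 gained a call, 28 lost one and 5 turned.

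Over all genes, 104 were called higher and 59 lower between the films, 1228 and 1079 with the block, 711 and 2116 with the block and the common total, 70 and 70 with the common total alone, 47 and 12 with the 16 FPKM filter, and from 13 and 2 to 70 and 30 over the omissions. Against TCP the filter gave 203 and 87 (PCL) and 315 and 125 (ISB-P) in place of 383 and 382, and 605 and 600. Omissions gave from 178 and 120 to 522 and 496 (PCL) and from 279 and 191 to 673 and 748 (ISB-P). Without a filter it was 384 and 732 (PCL) and 634 and 990 (ISB-P), and 511 and 814 on ISB-P with the common total. The common total moved the median of all genes from 0.02 to −0.09 between the films and from 0.05 to −0.11 for ISB-P against TCP. The TCP comparisons rest on 1 library, and the replicate block could not be fitted there because TCP carries no number.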
